A study of Mus musculus with 4 samples.

Results

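The Bcl2 family holds the proteins that decide whether the outer mitochondrial membrane of a cell stays intact. The 10 members described here are the BH3-only genes Bbc3 (PUMA), Pmaip1 (NOXA), Bcl2l11 (BIM), Bid and Bad, the effectors Bax and Bak1, and the anti-death genes Bcl2, Bcl2l1 (BCL-xL) and Mcl1. They were taken by gene symbol from a table of 48795 genes. All 10 were found once and passed the filter on low counts, which left 22158 tested genes. BH3-only proteins sense damage or loss of trophic support and bind the anti-death members, and some also activate the effectors. BAX and BAK1 then form pores that let cytochrome c out and start the caspase cascade. In the embryonic forebrain this pathway removes surplus progenitors and young neurons, and MCL1 and BCL-xL are known for keeping progenitors and young neurons alive. Bbc3, Pmaip1 and Bax are also known targets of the transcription factor p53.

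RNA was sequenced from the telencephalon, the embryonic forebrain, of C57BL/6 mouse embryos (embryonic day 14). Controls gave 2 libraries and carried a floxed Ctcf gene. The 2 Ctcf-null libraries came from embryos with the same floxed gene and NestinCre, a Cre recombinase under Nestin sequences, which are active in neural progenitors. CTCF is a DNA-binding zinc finger protein that anchors chromatin loops. The libraries are numbered as 2 pairs of 1 control and 1 Ctcf-null library, and no group used here carried the Cre without the floxed gene. The labels do not say whether a library is 1 embryo or a pool. Unless said otherwise, a p-value here sets the difference against the spread left once the difference between pairs is taken out. That spread is estimated largely across genes, and part of it may be technical. With the difference between pairs left in, limma called 0 genes. In such bulk tissue, fewer cells of a type and less RNA per cell cannot be told apart.

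Reads counted in genes, recovered from the deposited values, came to 25519331 to 43812558 per library. Ctcf itself, the targeted gene, fell from 436.72 to 38.89 normalized read counts in pair 1 and from 1133.21 to 61.96 in pair 2. All 12 telencephalon markers checked were present in every library. At the threshold given below 8 of the 12 fell, against 10.1% of all tested genes, among them the neuronal tubulin gene Tubb3 and the cortical neuron gene Neurod6. While 0 of the 12 rose, Pax6 was higher in both pairs without being called (2220.94 to 2387.9 and 2552.85 to 3164.78, control to Ctcf-null). The summed level of 9 microglia markers went from 1560.1 to 1921.2 (control to Ctcf-null) in pair 1 and from 3314.6 to 4006.7 in pair 2, and 1 of the 9 (C1qb) rose. The summed level of 7 red blood cell markers went from 1341557.8 to 923257.3 in pair 1 and from 573470.4 to 623630.1 in pair 2, and 0 of the 7 were called. Of 7 endothelial markers 2 fell (Pecam1 and Esam) and 0 rose. Of 6 choroid plexus markers 2 rose (Ttr and Otx2) and 0 fell, and of 7 pericyte and meninges markers 0 were called. All these counts use the threshold given below, by which 10.1% of all tested genes fell and 3.67% rose. No marker was at 0 in any library. Mitochondrially encoded genes took 2.43% of counts in the control and 3.34% in the Ctcf-null library of pair 1, and 2.65% and 2.88% in pair 2. The part of these values in the results below was not tested.

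Because CTCF was the protein removed, the start regions of the members were searched on both strands for the core of the CTCF motif. RefSeq start windows of the GRCm38.p6 build (250 bases before and 50 after each start) were found for 9 of the 10 members, in 15 windows. Pmaip1 was the member without a window, so its start was not searched for this or any other motif. The core was present in 3 of the 15 member windows, 1 each of Bbc3, Bcl2l1 and Mcl1, and in 8.61% of all 32851 windows. The Bbc3 match lay 134 to 123 bases before an internal start of the gene and read CCACCAGGGGGC on the minus strand. The stretch around it is inside the Bbc3 gene and overlaps no GENCODE exon. The Bcl2l1 match spanned an internal start, within an exon. The Mcl1 match lay 27 to 38 bases after the RefSeq start and outside the GENCODE gene. The sequences are given 5′ to 3′ on the strand of the gene, with the match in capitals.
Bbc3, chr7:16310011-16310260, plus strand: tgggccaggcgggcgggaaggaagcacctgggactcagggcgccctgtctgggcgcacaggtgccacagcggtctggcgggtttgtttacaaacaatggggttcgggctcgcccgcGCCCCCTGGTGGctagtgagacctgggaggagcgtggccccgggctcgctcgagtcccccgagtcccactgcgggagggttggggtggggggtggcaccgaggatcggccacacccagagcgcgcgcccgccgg
Bcl2l1, chr2:152830700-152830727, minus strand: cctgactcCCAGTAGGAGGCggagagcc
Mcl1, chr3:95658740-95658767, plus strand: cagcacggCCCTAAGGCGGCggcaggga

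The p53 half-site motif, searched on both strands in its usual degenerate form, was present in 1 of the 15 windows, that of Bax, and in 8.36% of all windows. The match, a single half-site, is shown in capitals in the stretch just before the Bax start, since Bax is a known p53 target. The stretch lies within the annotated gene Gm45808. The windows of Bbc3, also a known p53 target, held no match.
Bax, chr7:45466899-45467148, minus strand: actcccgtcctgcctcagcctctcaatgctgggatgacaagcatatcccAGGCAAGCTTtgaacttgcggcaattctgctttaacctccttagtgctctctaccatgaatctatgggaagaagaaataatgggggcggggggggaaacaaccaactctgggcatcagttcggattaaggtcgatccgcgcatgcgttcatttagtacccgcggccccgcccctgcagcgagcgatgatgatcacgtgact

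The GC box GGGCGG, the motif of SP1-type factors, was present in windows of 7 of the 9 members (10 of the 15 windows), against 35.7% of all windows. The windows of Bak1 and Bcl2l1 held none. None of the CTCF core or p53 matches overlapped a GC box. Member windows held 49.3% to 78% GC, and only Bcl2l1 windows at 49.3% and 52.3% lay below the median of 52.7% over all windows. Some windows of the same gene overlapped. The part of base composition in the motif shares was not tested. These matches describe the letters only.

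In Ctcf-null telencephalon 1 member rose and 3 fell. The BH3-only gene Pmaip1 was 2.36-fold higher and the effector gene Bak1 was 3.61-fold lower, both on the log2(value + 1) scale. Bad and Bcl2l1 fell by less, with log2 differences of -0.28 and -0.26. Here rose and fell mean an adjusted p under 0.05 in limma with the pair as a block. By that rule 4 of the 10 members were called, against 13.7% of all tested genes (3.67% higher and 10.1% lower). Of all calls 26.7% were higher, a share that was 40.2% in edgeR with the block, 41.6% with TMM factors, 57.7% with upper-quartile factors and 45.2% after a GC correction. The median log2 difference was -0.11 over the members and -0.07 over all tested genes. The difference had the same sign in both pairs in 9 of the 10 members, against 67.4% of tested genes. Values of the genotypes did not overlap in 2 members (Pmaip1 and Bak1), against 14.1% of tested genes. The pair-blocked alternatives called 2 members in edgeR (11.9% of all genes), 2 with TMM factors (10.5%), 2 with upper-quartile factors (9.78%), 3 after a correction for GC content (11.9% of 22020 genes) and 0 in DESeq2 (3.75%). Without the pair block limma and edgeR each called 0 of all tested genes, so neither the members nor Ctcf were called. In both fits 0 members had an unadjusted p under 0.05.

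**Figure D1:**
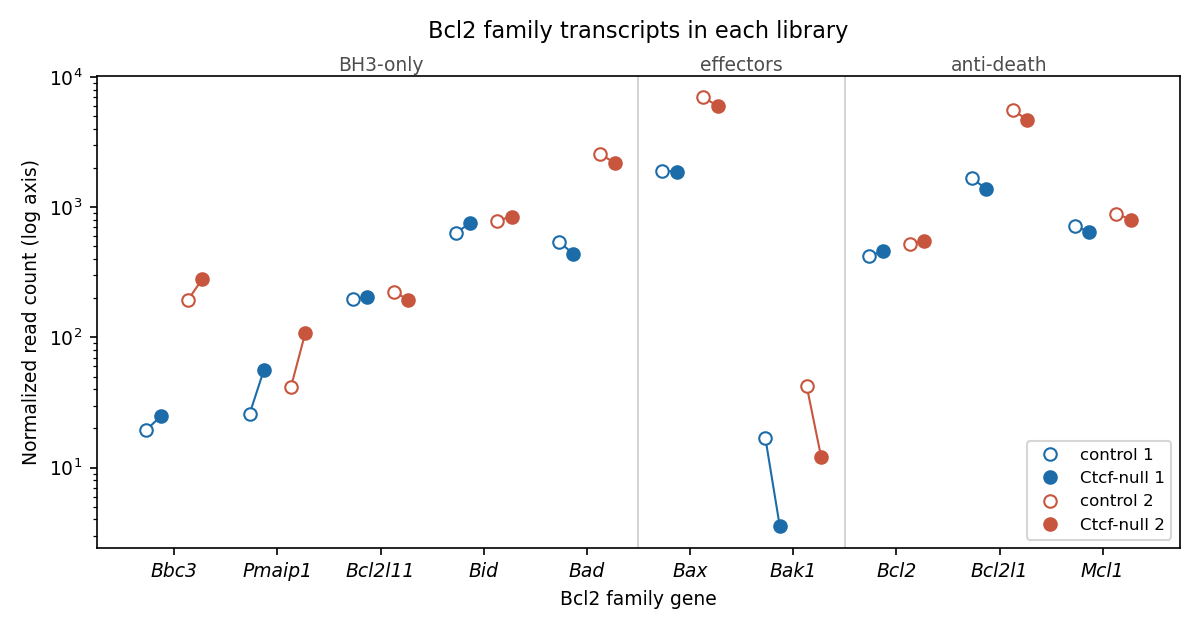
Normalized read counts on a log axis for the 10 genes, by role. Open circles are controls, filled circles are Ctcf-null libraries, and a line joins the libraries of a pair. The lines rise steeply for Pmaip1 and fall steeply for Bak1. For Bbc3, Bad, Bax and Bcl2l1 the gap between pairs is far wider than the gap between genotypes. The same holds to a smaller degree for other genes, such as Mcl1 and Bcl2.

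Pmaip1, whose product binds and neutralizes MCL1, went from 25.79 in the control to 56.57 normalized read counts in the Ctcf-null library of pair 1, and from 41.28 to 108.12 in pair 2. Both Ctcf-null libraries lay above both controls. The ratio of Ctcf-null to control was 2.19 in pair 1 and 2.62 in pair 2. The log2 difference was 1.24 (SE 0.24, 95% interval 0.74 to 1.73, limma adjusted p = 0.0014, higher in 2 of 2 pairs). These values rest on few reads, 29 against 80 in pair 1 and 33 against 89 in pair 2. The 95% counting intervals (exact Poisson, on the normalized scale) were 17.3 to 37 and 44.9 to 70.4 in pair 1 and 28.4 to 58 and 86.8 to 133 in pair 2, control first. They did not overlap within pairs. Such intervals cover counting error only. edgeR with the block on the recovered reads gave 1.32 (adjusted p = 3.8e-04), whereas DESeq2 with the block gave 1.29 and missed the threshold (adjusted p = 0.071). For the single pairs, log2 fold changes of 1.10 and 1.37 stand in the authors' deposited table.

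Bbc3, a BH3-only gene whose product binds all the main anti-death proteins, was at 19.57 in the control and 24.75 in the Ctcf-null library of pair 1, and at 192.62 and 279.42 in pair 2. It was higher in the Ctcf-null library of both pairs, by ratios of 1.26 and 1.45. Control 2 was 9.84-fold above control 1, so the genotypes overlapped. The log2 difference was 0.43 (SE 0.21, 95% interval -0.00081 to 0.86) and did not pass (limma adjusted p = 0.19). It was 0.54 in edgeR with the block (adjusted p = 0.061). After a correction for GC content within pairs, an alternative chosen after seeing the data, it was 0.68 and passed (limma adjusted p = 0.020). In pair 1 the normalized counting intervals overlapped, at 12.3 to 29.6 in the control and 17.2 to 34.4 in the Ctcf-null library. In pair 2 they did not, at 163 to 226 and 244 to 318.

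Bad, a BH3-only gene whose product survival kinases hold inactive through 14-3-3 proteins, went from 542.56 in the control to 436.99 in the Ctcf-null library of pair 1, and from 2571.62 to 2177.08 in pair 2. The Ctcf-null to control ratio was 0.805 in pair 1 and 0.847 in pair 2, and the genotypes overlapped because the pairs lay far apart. The log2 difference was -0.28 (SE 0.08, 95% interval -0.45 to -0.10, limma adjusted p = 0.033). The call was lost in edgeR with the block (-0.22, adjusted p = 0.092), with TMM factors in limma (-0.22, adjusted p = 0.10) and after the GC correction (-0.16, adjusted p = 0.24). With DESeq2 and upper-quartile factors it was lost too.

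The other BH3-only genes did not pass. Bid, which links death receptors to mitochondria once its product is cut by caspase-8, was at 634.17 in the control and 756.6 in the Ctcf-null library of pair 1, and at 788 and 847.99 in pair 2. It was higher within both pairs, though control 2 lay above Ctcf-null 1, and the log2 difference was 0.18 (95% interval -0.01 to 0.37, limma adjusted p = 0.22). Bcl2l11, a BH3-only gene of trophic factor withdrawal, was at 197.46 and then 204.35 in pair 1 (control, Ctcf-null), and at 225.14 and 193.17 in pair 2. Its pairs went opposite ways, at 0.05 and -0.22, and the log2 difference was -0.09 (95% interval -0.38 to 0.21, limma adjusted p = 0.75), turning to 0.02 with upper-quartile factors.

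Of the effectors, Bak1 went from 16.9 normalized read counts in the control to 3.54 in the Ctcf-null library of pair 1, and from 42.53 to 12.15 in pair 2. Both Ctcf-null libraries lay below both controls, and the control to Ctcf-null ratio was 4.77 in pair 1 and 3.5 in pair 2. The log2 difference was -1.85 (SE 0.40, 95% interval -2.70 to -1.01, limma adjusted p = 0.0041, lower in 2 of 2 pairs). Bak1 had 19 reads against 5 in pair 1 and 34 against 10 in pair 2. It was the member that met the count minimum of the filter in both controls but in only 1 Ctcf-null library. The normalized counting intervals were 10.2 to 26.4 and 1.15 to 8.25 in pair 1 and 29.5 to 59.4 and 5.83 to 22.3 in pair 2, control first, and did not overlap within pairs. edgeR with the block gave -1.90 (adjusted p = 0.0022). DESeq2 gave -1.98 with no adjusted p (unadjusted p = 0.014), and the stricter filter left Bak1 untested. A pseudocount of 5 in place of 1 reduced the difference to -1.41 (limma adjusted p = 0.0016). The opposite-strand gene Ggnbp1, whose exons cover up to 18.2% of those of Bak1, was at 0.18 (limma adjusted p = 0.60), and reads of the shared bases cannot be assigned without strand information.

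Bax, the other effector, was at 1913.19 in the control and 1870.3 in the Ctcf-null library of pair 1, and at 6991.89 and 5951.73 in pair 2. It was slightly lower within both pairs, by ratios of 0.978 and 0.851, and the genotypes overlapped. The log2 difference was -0.13 (SE 0.07, 95% interval -0.28 to 0.02, limma adjusted p = 0.24), and after the GC correction its sign turned, to 0.09 (limma adjusted p = 0.48).

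**Figure D2:**
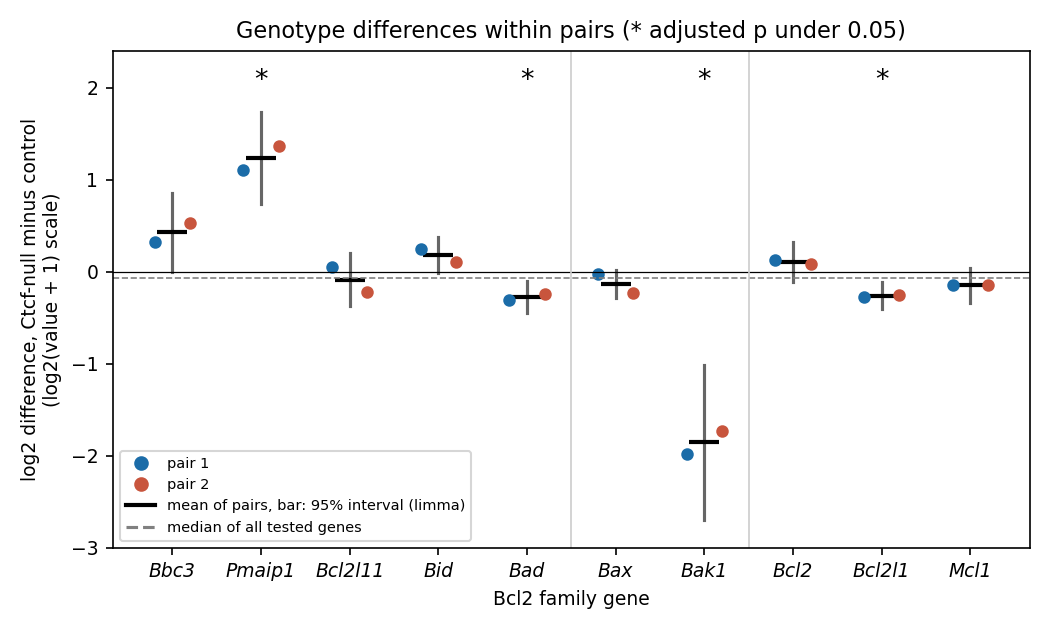
Log2 difference between Ctcf-null and control within pair 1 and pair 2 (points) for each gene, with the mean of both pairs (black bar), its 95% interval from limma (vertical line) and the median of all tested genes (dashed line, -0.07). Stars mark an adjusted p under 0.05. Pmaip1 lies at 1.24 and Bak1 at -1.85, and the other 8 genes lie between -0.28 and 0.43.

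Among the anti-death genes, Bcl2l1, the BCL-xL gene, went from 1673.04 in the control to 1384.52 in the Ctcf-null library of pair 1, and from 5566 to 4682.17 in pair 2. It was lower in both pairs by nearly the same ratio, 0.828 and 0.841, and the genotypes overlapped across pairs. The log2 difference was -0.26 (SE 0.07, 95% interval -0.41 to -0.12, limma adjusted p = 0.016). The call was lost in edgeR with the block (-0.21, adjusted p = 0.056), with TMM factors in limma (-0.21, adjusted p = 0.066), in DESeq2 (-0.23, adjusted p = 0.31) and after the GC correction (-0.16, adjusted p = 0.18). Red blood cell precursors are known to depend on BCL-xL. The summed red blood cell markers given above were lower in pair 1 and higher in pair 2, and their part in the Bcl2l1 difference was not tested. Mcl1, whose short-lived product guards neural progenitors, was at 716.89 and then 644.17 in pair 1, and at 894.31 and 804.25 in pair 2. Its ratio was 0.899 in both pairs, and the log2 difference of -0.15 (SE 0.09, 95% interval -0.34 to 0.03) did not pass (limma adjusted p = 0.29). Bcl2, the founding member, was at 420.71 and then 459.62 in pair 1, and at 521.58 and 552.77 in pair 2. It was higher within both pairs by ratios of 1.09 and 1.06, and the log2 difference was 0.11 (95% interval -0.11 to 0.32, limma adjusted p = 0.56).

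Levels of different genes were compared per kilobase of exon, since longer transcripts yield more reads. Per kilobase, Bax was the most abundant member and Bcl2l1 the second in all 4 libraries, at 1210 and 365 normalized read counts per kilobase in control 1, 4440 and 1210 in control 2, 1190 and 302 in Ctcf-null 1 and 3780 and 1020 in Ctcf-null 2. Bad, Bid and Mcl1 followed in an order that changed between libraries, from 171 to 1010 per kilobase for Bad, 179 to 239 for Bid and 188 to 262 for Mcl1. Bcl2 (45.9 to 60.4) and Bcl2l11 (24.1 to 28) were lower in a narrow range. Pmaip1 was at 9.44 and then 20.7 per kilobase in pair 1, and at 15.1 and 39.6 in pair 2. Bbc3 spanned 9.21 to 132 per kilobase, and its range crossed those of Pmaip1, Bcl2l11 and Bcl2. Bak1, at 7.02 and 1.47 in pair 1 and 17.7 and 5.05 in pair 2, was the lowest in control 1 and both Ctcf-null libraries, whereas in control 2 Pmaip1 was lower still. Exon lengths came from GENCODE M21 and may differ from the annotation the authors counted with.

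Ratios of 2 members within a library depend little on its size factor (only through the pseudocount of 1). The log2 ratio of Pmaip1 to Mcl1, the NOXA gene against the gene of its main binding partner, was -4.74 in control 1 and -3.49 in Ctcf-null 1, and -4.40 and -2.88 in pair 2. The changes were 1.26 and 1.52. The log2 ratio of Bbc3 to Bcl2l1 was -6.35 and then -5.75 in pair 1, and -4.85 and -4.06 in pair 2, with changes of 0.60 and 0.78. The ratio of Bak1 to Mcl1, which holds BAK1 in check, changed by -1.83 and -1.57 on the log2 scale. The ratio of Bax to Bcl2 changed by -0.16 and -0.32 and that of Bcl2l1 to Mcl1 by -0.12 and -0.10, while that of Bax to Mcl1 differed in sign between pairs (0.12 and -0.08). These ratios are descriptions, with no test. Summed per kilobase, pro-death members (BH3-only and effectors) stood at 2.66 times the anti-death members in control 1 and 3.02 times in Ctcf-null 1, and at 3.81 and 3.85 times in pair 2. The change between genotypes was smaller than the difference between the controls. Bax made up most of the pro-death sum and Bcl2l1 most of the anti-death sum in each library. The low Pmaip1 and Bak1 therefore weigh little in these sums.

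By how far the pairs differed, a division made after seeing the values, the members formed 2 sets. In Bbc3, Bad, Bax, Bcl2l1 and Bak1, control 2 was 2.52-fold to 9.84-fold above control 1. In Pmaip1, Bid, Mcl1, Bcl2 and Bcl2l11 it was 1.14-fold to 1.6-fold above. Ctcf-null 2 against Ctcf-null 1 gave the same division, with 3.18-fold to 11.3-fold in the first set and 0.945-fold to 1.91-fold in the second. The first set also held the GC-rich transcripts. GC content of the longest annotated transcript was 55.9% to 65.2% in those 5 genes, highest in Bbc3, and 42.1% to 51.3% in the other 5, lowest in Pmaip1. Across the 10 members, GC content and the log2 difference between controls correlated at r = 0.86 (rho = 0.83). These points share the same 2 libraries, and genes are not independent replicates. Over 22020 tested genes r was 0.37 (rho = 0.34), and the median difference between controls rose from -0.48 below 40% GC to 1.86 at 60% GC and above. The genotype difference also varied with GC, though less, with a median log2 difference of 0.03 below 40% GC, -0.11 at 55% to 60% and -0.19 at 60% and above. In the GC-corrected fit neither Bad nor Bcl2l1 passed, while Pmaip1 (1.25) and Bak1 (-1.74) did (limma adjusted p = 1.3e-04 and 0.0021).

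**Figure D3:**
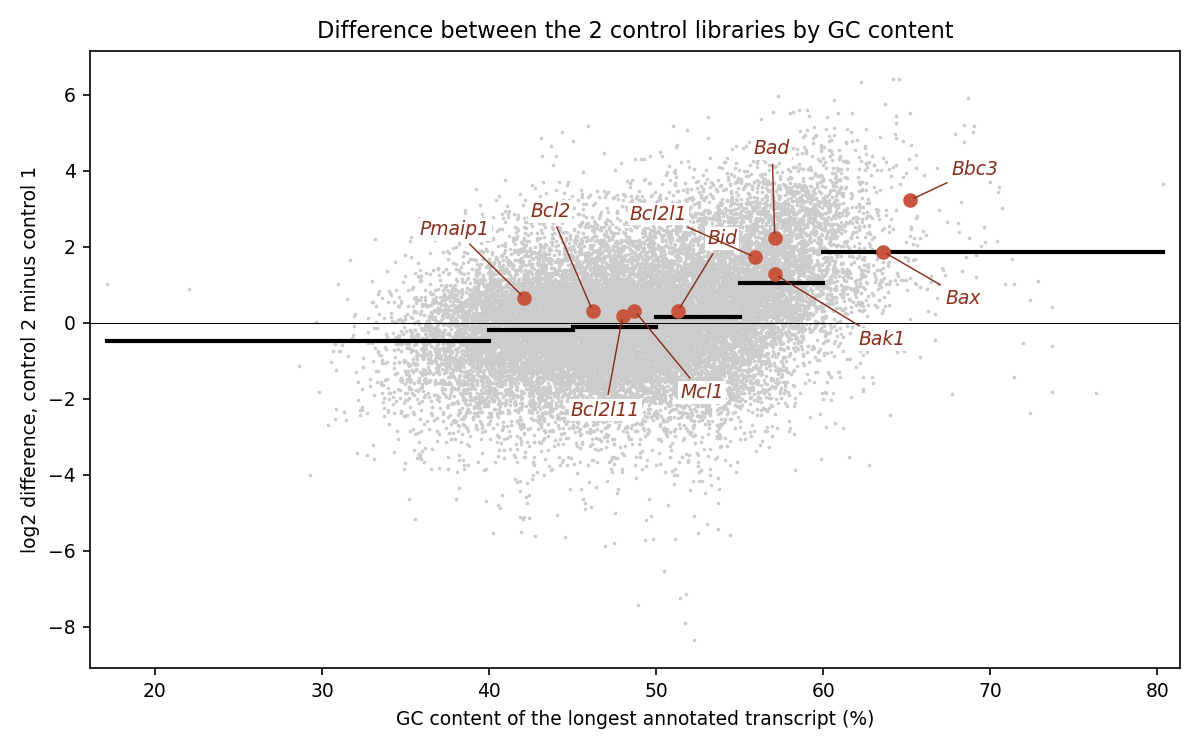
GC content of the longest transcript (percent) against the log2 difference between control 2 and control 1. Grey points are 22020 tested genes, black bars are medians of GC bins and red points are the 10 Bcl2 family genes. Bbc3, Bax, Bad, Bcl2l1 and Bak1 lie at 55.9% GC or more and at 1.28 or more on the log2 scale, and the other 5 lie at or below 0.66.

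Of 16 further genes of the wider Bcl2 family, 12 could be tested, with a median log2 difference of -0.05. Of these 12, limma with the block called 0, against 13.7% of all tested genes. Unadjusted p was under 0.05 for 3 of the 12 in limma, for 3 in edgeR with the block and for 0 in DESeq2. edgeR and DESeq2 also called 0, against 11.9% and 3.75% of all tested genes. Hrk, a BH3-only gene of dying neurons, was at 90.72 and then 122.33 in pair 1, and at 63.79 and 89.9 in pair 2 (log2 difference 0.46, SE 0.19, limma adjusted p = 0.12). Bmf, a BH3-only gene tied to the cytoskeleton, was at 0.31 (0.57 and 0.06 in the pairs), and Bik, another BH3-only gene, was at -0.98 (SE 0.39) with 14.23 and then 7.78 normalized counts in pair 1, and 31.27 and 13.36 in pair 2. The effector-like gene Bok was at -0.08 and the anti-death gene Bcl2l2 (BCL-w) at 0.12. Bcl2l12 was at -0.41 (SE 0.15, limma adjusted p = 0.071), Becn1, an autophagy gene whose product binds BCL2, at -0.14 and Bcl2l13 at -0.12. The mitophagy receptor genes Bnip3 and Bnip3l were at 0.01 and -0.02. Bcl2a1b, an anti-death gene of blood cells, was at -0.10, and Bcl2l15 was at 0.01. Bcl2a1b belongs to a cluster of near-identical copies, so its reads are uncertain. Bcl2a1a, Bcl2a1d, Bcl2l10 and Bcl2l14 were too low to test, at no more than 11.26 normalized counts in any library.

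Downstream of the mitochondria, 2 of 18 apoptosome, caspase and inhibitor genes fell and 0 rose, with a median of -0.11. The called share of 11.1% lay near that of all tested genes (13.7% in either direction, 10.1% lower), and DESeq2 with the block called 0. Aifm1, a mitochondrial flavoprotein gene, fell by 0.23 (limma adjusted p = 0.043). Casp9 at 0.18, Apaf1 at 0.02 and Cycs, the cytochrome c gene, at -0.02 did not pass. Of 7 outer membrane partners, Mtch2, the docking protein of truncated BID, fell by 0.23 (limma adjusted p = 0.021), and the BAK1-binding channel gene Vdac2 was at -0.08. This call, 14.3% of the list against 13.7% of all tested genes, was lost in edgeR and DESeq2 with the block and with TMM or upper-quartile factors. Of 10 genes whose products modify or hold the members, 2 fell, Dynll1, the dynein light chain that binds BIM, by 0.30 (limma adjusted p = 0.0019) and the 14-3-3 gene Ywhae by 0.19 (limma adjusted p = 0.042). Of all tested genes 10.1% were lower. Both calls were lost in DESeq2 and with upper-quartile factors. The medians of the outer membrane and protein-level lists were -0.08 each, against -0.07 for all tested genes. In the death receptor list 0 of 7 were called, against 13.7% of all tested genes. In edgeR with the block 0 were called too (11.9% of all tested genes), and 0 had an unadjusted p under 0.05 in limma or edgeR.

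Among 10 transcription regulators of BH3-only genes, 1 rose and 1 fell, with a median of 0.04, against 3.67% higher and 10.1% lower over all tested genes. Foxo3, a forkhead factor known to induce Bbc3 and Bcl2l11, rose from 258.83 and 252.66 normalized counts to 362.75 and 365.68 (log2 difference 0.51, SE 0.12, limma adjusted p = 0.0063). Jun fell by 0.36 (limma adjusted p = 0.025), a call that was lost with TMM factors, with upper-quartile factors, after the GC correction and in DESeq2. DESeq2 did not call Foxo3 either. Trp53, the p53 gene, was at 0.07 and Mdm2 at -0.06, and neither passed. Of 13 other p53 targets 3 rose and 1 fell, with a median of 0.16, against the same 3.67% higher and 10.1% lower over all tested genes. Cdkn1a, the p21 gene, was at 0.73, Eda2r at 1.49 and Ccng1 at 0.49, while Btg2 was at -0.69, with limma adjusted p of 8.2e-07 to 0.0045. Mdm2, Apaf1 and Fas stand in this list and in another. Of the 3 that rose, Cdkn1a and Eda2r lay on either side of Pmaip1 (1.24). Bbc3 at 0.43 and Bax at -0.13 lay below Ccng1. The 9 targets not called lay between -0.06 (Mdm2) and 0.66 (Fas).

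**Figure D4:**
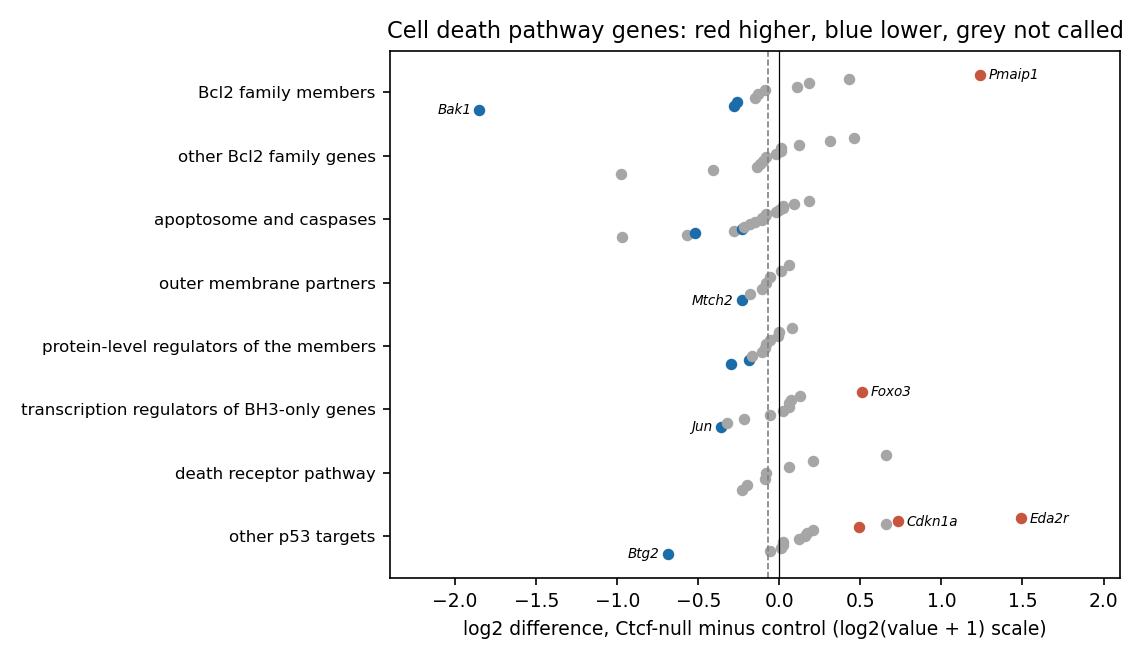
Log2 difference between Ctcf-null and control for each tested gene of the Bcl2 family members and of 7 lists. Each point is a gene, red where higher and blue where lower at an adjusted p under 0.05, and the dashed line is the median of all tested genes (-0.07). Bak1 and Pmaip1 lie at the left and right ends of the top row. In the rows of other Bcl2 family genes and of the death receptor pathway every point is grey.

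In the genome (GRCm38, GENCODE M21) Bcl2l11 (128126038 to 128162547) and Bcl2l1 lie on chromosome 2, and Bbc3 and Bax (45461697 to 45466898) on chromosome 7. Bid lies on chromosome 6 (120891930 to 120916853), Bcl2 on chromosome 1 (106538178 to 106714274) and Mcl1 on chromosome 3 (95658788 to 95663176). Of the 20 nearest tested genes on either side, 3 fell and 0 rose, with a median of -0.10, close to the 13.7% called (10.1% lower) and the median of -0.07 over all tested genes. The count of calls among the neighbours was 1 in edgeR and DESeq2 with the block, with TMM or upper-quartile factors and after the GC correction. Pmaip1 (chromosome 18, 66458533 to 66465565) stood alone, with gaps of 138888 bases to Gm15958 (limma adjusted p = 1) and 392139 bases to Mc4r, a melanocortin receptor gene, which fell by 0.72 (limma adjusted p = 2.7e-05) where Pmaip1 rose. Bak1 (chromosome 17, 27019810 to 27029009) had the calcium channel gene Itpr3 on its higher coordinate side, at 0.50 (limma adjusted p = 0.33). Beside Bcl2l1 (chromosome 2, 152780668 to 152831728), Tpx2, a spindle gene 16236 bases away, was at -0.24 (limma adjusted p = 0.026), close to the -0.26 of Bcl2l1, and Cox4i2 on the other side was at -0.14. The neighbours of Bad (chromosome 19, 6941861 to 6951899), Tex40 at -1.39 and Plcb3 at 0.27, did not pass. Sae1, 2029 bases from Bbc3 (chromosome 7, 16308393 to 16318205), was at -0.18 and Ccdc9 at -0.14, with a sign opposite to that of Bbc3. Exons of Bad, Bid, Bax and Bcl2 also overlap other annotated genes, by 20.5%, 17.7%, 12.2% and 6.1% of their bases.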

How the data were processed

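RNA was sequenced from 4 telencephalon libraries. The submitters' processing notes name mm10, STAR 2.5.3 and DESeq2. Gene counter and annotation release: not given in the sources used here. By the labels' protocols cDNA was made with a Clontech kit, with no strand or molecular identifiers named. Per the file headers, the authors deposited normalized read counts, a signal, with log2 fold changes per pair. By their steps, the values are whole reads times 1 constant per library, not scaled by length. Divided by what 1 read is worth, 99.97% or more of a library's nonzero values came out whole (tolerance 0.005). The deposited log2 fold changes equalled log2 of (Ctcf-null + 1)/(control + 1) within 0.008.

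Genes were kept by filterByExpr (edgeR 4.0.16) at 10 reads at median depth in 2 libraries. limma 3.58.1 (R 4.3.3) with a mean-variance trend was run on log2(value + 1) with the pair as a block, two-sided, with Benjamini-Hochberg adjustment over 22158 genes. The block leaves 1 residual degree of freedom and borrows spread across genes (prior degrees of freedom 18.1). The pairing comes from the series' design text, and the deviations from group means of libraries sharing a number had a correlation of 0.923. edgeR's quasi-likelihood test and DESeq2 1.42.0 were run on the recovered reads. The fits were tested on simulated data. The GC correction subtracted a lowess curve of the pair difference on transcript GC. IDs were matched to GENCODE M21 for 48435 of 48795 genes. All members, tested genes of the wider family, and called genes of other lists (at most 4 a direction) were to be named, with added examples chosen after their values were seen. A few genes that this rule would name are not reported here. The members and lists were chosen with earlier results of these data known.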

Additional observations from a re-analysis of the deposited data

How the results depend on the processing

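With a normalized count pseudocount of 0.5 or 5, or with no filter, the same number of members (4) was called as reported. The stricter filter and the GC correction called 3, and edgeR with the block, TMM factors and upper-quartile factors called 2 each. DESeq2 with the block called 0 members, with 3 at an unadjusted p under 0.05, and 832 genes in all against 3041. Calls were higher in 26.7% of cases with the authors' factors, 41.6% with TMM factors, 57.7% with upper-quartile factors and 45.2% after the GC correction. Upper-quartile factors moved the median of all tested genes by 0.11 and put Bad at -0.17 (adjusted p = 0.26) and Bcl2l1 at -0.15 (adjusted p = 0.24). With the same factors Bcl2l11 was at 0.02, a reversed sign. The GC correction put Bax at 0.09, Bbc3 at 0.68, Bad at -0.16 and Bcl2l1 at -0.16. DESeq2 put Pmaip1 at 1.29, Bad at -0.25 (adjusted p = 0.42) and Bcl2l1 at -0.23, and edgeR with the block and TMM factors put Bad at -0.22 and Bcl2l1 at -0.21. A pseudocount of 5 moved the ratio of Bak1 to Mcl1 from -1.70 to -1.26. The cause was not tested.

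Without the replicate block, limma called 0 genes (170 at an unadjusted p under 0.05) and edgeR 0 (174), so every list, the members and their neighbours stood at 0. Without the pairing term Pmaip1 was at 1.24 in limma and 1.34 in edgeR, Bak1 at -1.85 and -1.90, Bad at -0.28 and -0.20, Bcl2l1 at -0.26 and -0.20, each with an adjusted p of 1. Ctcf, the targeted gene, was at -3.81 and -3.89 and was not called either. In simulated data, limma without the block recovered 0% of 4-fold changes, so its 0 calls cannot tell whether a member differs. Leaving out 1 library without the block, the lone library being assumed to vary like the other genotype, called 0 to 2 genes in all and 0 members. Without control 1, control 2, Ctcf-null 1 and Ctcf-null 2 in turn, Pmaip1 was at 0.91, 1.56, 1.70 and 0.77, Bak1 at -2.49, -1.21, -1.09 and -2.62, Bad at -1.40, 0.85, 0.88 and -1.43, and Bcl2l1 at -1.13, 0.61, 0.62 and -1.14. Bbc3 was at -1.19, 2.05, 2.15 and -1.29, Bax at -1.07, 0.80, 0.70 and -0.97, Mcl1 at -0.31, 0.01, 0.01 and -0.31, and Bcl2 at -0.05, 0.26, 0.24 and -0.03. Bcl2l11 ranged from -0.18 to 0.01 and Bid from 0.02 to 0.34. These fits compare libraries of different pairs. The single pairs, with no test, kept the sign of the reported difference in every member except Bcl2l11 (0.05 in pair 1).

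The list of caspases and the apoptosome, with 2 calls as reported, had 1 with TMM factors, upper-quartile factors, a pseudocount of 0.5 or the GC correction and 0 in DESeq2. The outer membrane list, with 1, had 0 in edgeR, DESeq2, and with TMM or upper-quartile factors, and 2 after the GC correction. The list of protein-level regulators, with 2, had 1 in edgeR, with TMM factors, a pseudocount of 5, the stricter filter or the GC correction, and 0 in DESeq2 and with upper-quartile factors. The list of transcription regulators, with 2, had 1 with TMM factors, upper-quartile factors or the GC correction and 0 in DESeq2. The neighbours, with 3, had 1 in edgeR and DESeq2 with the block, with TMM or upper-quartile factors and after the GC correction. Low read counts limit Bak1, Pmaip1 and, in pair 1, Bbc3.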
